A study of Mus musculus with 12 samples.

Results

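The genes described here carry glucose into the cell, break it down to pyruvate and lactate, decide whether pyruvate enters the mitochondrion, and feed the pentose phosphate branch. They were chosen by name, 37 in all, and were read in mouse megakaryocytes, which shed platelets from the bone marrow. Of the 37, 31 had a probe set carrying that gene's symbol alone and could be measured, among 30142 genes so measured on the arrays. Gpi1, Pfkfb1, Eno1 and G6pdx had no named probe set in the annotation used here, and those of Pfkfb2 and Tkt carried a further gene's symbol, so these 6 members have no value. For each gene the probe set with the highest mean over the 12 arrays was taken.

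Bone marrow stem cells of male C57BL/6 mice were driven towards megakaryocytes with thrombopoietin at 100 ng per ml for 3 days, kept overnight in charcoal-stripped serum at 10%, and purified on day 4. Each of 6 cultures was then divided: one portion received the synthetic glucocorticoid dexamethasone at 100 nM and the other its vehicle, both for 6 h. The comparison is thus dexamethasone against vehicle within a culture, with 6 arrays per group. Cultures are called 1 to 6 after the replicate numbers in the sample titles, and the same cultures carry the numbers 1, 4, 5, 6, 7 and 8 in the sample descriptions. All cells shared the sex, the strain, the thrombopoietin and the stripped serum. The sources used here do not give the age of the mice or say whether each culture came from separate animals.

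Glycolysis turns glucose into pyruvate through a chain of cytosolic enzymes, most of which exist as several isozymes. Its pace is set at a few steps: entry of glucose through the SLC2A transporters, its phosphorylation by hexokinase, and the phosphofructokinase step, which fructose 2,6-bisphosphate activates. Pyruvate is then reduced to lactate and exported, or oxidised by pyruvate dehydrogenase, which the PDK kinases switch off. Platelets and their parent cells use glycolysis heavily, and glucocorticoids are named for their effect on glucose metabolism in liver, muscle and fat.

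All values are the authors' deposited log2 values, on which 1 unit is a doubling, and a fold here is a fold on that scale. Array medians lay between 5.57 and 5.67, arrays of one group correlated with r from 0.990 to 0.994, and negative control probe sets had medians from 6.15 to 6.39, the background level in what follows. Their spread was wide, with 95th percentiles from 9.98 to 10.39, and 18 of the 31 measured members lay below that percentile on all 12 arrays while 10 lay above it on all 12. Of all measured genes, between 11.9% and 14.1% lay above it on an array. A value above the background level can thus still lie inside the spread of the negative controls, and folds from such levels are those of the deposited values only. Of the megakaryocyte markers, 14 were measured, and their mean was 15.61 to 15.82 on vehicle and 15.60 to 15.85 on dexamethasone arrays, with none below background on all 12 arrays. That mean covers 3 rises and 2 falls: Tubb1, the platelet beta-tubulin, fell by 1.14 (limma adjusted p = 4.71e-06), F2rl2 also fell, and Gp9, a subunit of the von Willebrand factor receptor, rose by 0.44, with smaller rises of Gata1 and Clec1b. The part of these markers in the results below was not tested. All 6 glucocorticoid-responsive control genes rose, among them Fkbp5, a co-chaperone of the receptor, from 6.62 ± 0.11 to 8.99 ± 0.23 (SD, n = 6). Of 15 neutrophil markers 4 fell, 2 rose and 3 were below the background level on every array. The counts of both marker lists stand beside 7.39% of all genes that rose and 4.56% that fell. Among genes above the negative control median these shares were 16.8% and 9.48%. The mean of the neutrophil markers ran from 6.55 to 7.31 in vehicle and from 6.24 to 7.08 in dexamethasone. S100a9 and S100a8 lay far above it, at 12.54 ± 1.01 and 12.36 ± 1.19 in vehicle (SD, n = 6). Their vehicle arrays ran from 10.82 to 13.55 and from 10.21 to 13.43. Both were lower in 6 of 6 cultures, by 0.77 and 0.51 on average (limma adjusted p = 0.0292 and 0.0474). Camp also fell, by 0.49, while Mmp8, near the background level, rose by 0.47 in 6 of 6 cultures (limma adjusted p = 0.00426). The part of the neutrophil markers was likewise not tested, and in such mixed RNA fewer cells of a type and less RNA per cell cannot be told apart.

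After 6 h of dexamethasone, 8 of the 31 measured members had risen and 1 had fallen, while 22 missed the threshold, an adjusted p under 0.05 by limma over all 24265 genes tested. The rises were those of Pfkfb3, Pfkfb4, Pgam1, Pfkp, Hk1, Pdk3, Taldo1 and Slc16a3, and the fall was that of Hk2. One gene stood far from the others: Pfkfb3 rose 10.2-fold, while the other called members changed by at most 0.56 on the log2 scale. Of all genes tested, 7.39% rose and 4.56% fell, against 25.8% and 3.23% of the members. The median change of the members was 0.01 and that of all genes -0.01. All 31 members passed the filter on dim genes, 30 of them on all 12 arrays.

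The background share depends on brightness, and the members were brighter than most genes, with a median vehicle level of 8.77 against 6.49. Among genes above the negative control median on at least 6 arrays, 16.8% rose and 9.48% fell. Under that filter 26 members were tested, of which 9 rose and 1 fell, the added rise being that of Slc2a1. Under quantile normalization 7 members rose and 3 fell, the added falls being those of Pgk1 and Pkm, while Slc16a3 did not pass. That setting gave 1417 rises and 1738 falls among all genes, against 1794 and 1106 without it. Over all genes, leaving out culture 3 gave 1164 rises and 714 falls in place of 1794 and 1106, leaving out culture 4 gave 1178 rises, and leaving out culture 6 gave 712 falls.

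**Figure D1:**
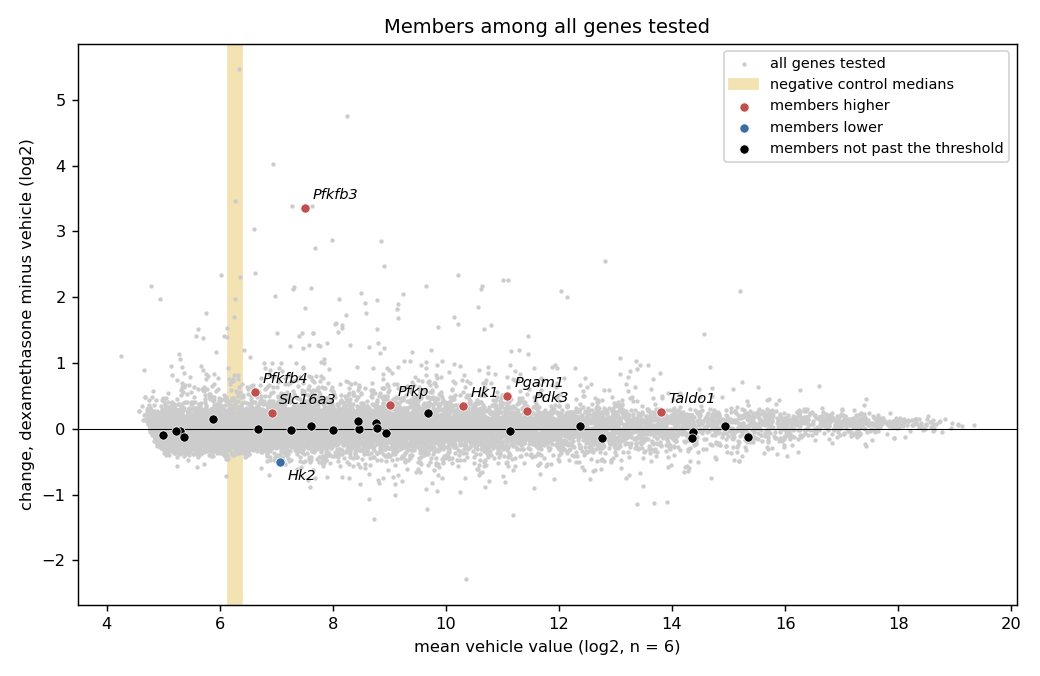
Change under dexamethasone (log2, y axis) against mean vehicle level (log2, n = 6, x axis) for the 24265 genes tested (grey) and the 31 members (coloured by call), with the band of negative control medians from 6.15 to 6.39. Pfkfb3 lies alone among the members at 3.35, and the other called members lie between -0.51 and 0.56.

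Glucose entry is served by Slc2a1 (GLUT1), the widespread basal glucose transporter, and Slc2a3 (GLUT3), the high-affinity transporter that platelets carry. Slc2a1 ran from 9.50 through a median of 9.66 to 9.94 in vehicle and from 9.74 through 9.88 to 10.12 in dexamethasone. The groups overlapped, and 5 of 6 cultures were higher, with culture 1 lower by 0.10 and culture 3 higher by 0.51. The difference of 0.23 (SE 0.07) did not pass the threshold (limma adjusted p = 0.0777), with a 95% interval from 0.07 to 0.40. It passed in 3 of 18 other settings, among them without culture 1, where the difference was 0.30 and the adjusted p 0.0256. Slc2a3 had a median of 14.37 in vehicle, from 14.25 to 14.45, and 14.38 in dexamethasone, from 14.12 to 14.45. Its interval, -0.16 to 0.07, covered both directions.

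Among the hexokinases, which trap glucose as glucose 6-phosphate, Hk1 and Hk2 moved in opposite directions. Hk1, the constitutive form bound to mitochondria, ran from 10.24 through 10.31 to 10.41 in vehicle and from 10.47 through 10.68 to 10.83 in dexamethasone. Every dexamethasone array lay above every vehicle array. The rise was 0.34 (SE 0.06, adjusted p = 0.0066 by limma), or 1.27-fold, and was higher in 6 of 6 cultures, from 0.20 in culture 1 to 0.53 in culture 2. Without cultures 2 and 3 it was 0.26 and did not pass (adjusted p = 0.0599).

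Hk2, the inducible hexokinase of muscle, fat and proliferating cells, fell. Its vehicle arrays ran from 6.75 through 7.10 to 7.26 and its dexamethasone arrays from 6.28 through 6.58 to 6.79. The groups touched, because the vehicle array of culture 2 lay just below the dexamethasone array of culture 4, but each culture fell on its own, by between 0.40 and 0.71. The fall was 1.43-fold, -0.51 on the log2 scale (SE 0.05, limma adjusted p = 0.000321). One of the 6 dexamethasone arrays was below background, and all 12 arrays of Hk2 lay below the 95th percentile of the negative controls. Hk3, a hexokinase of granulocytes and monocytes, was below background on all 12 arrays, with medians of 5.30 and 5.24.

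The change of Hk1 exceeded that of Hk2 by 0.86 ± 0.11 (SD, n = 6) and did so in 6 of 6 cultures. The exact sign-flip test, two-sided, gave p = 0.0312 for this pair, the smallest that 6 cultures allow. Adjusted over the 10 isozyme pairs compared, the exact p was 0.0781, and no pair passed the threshold after adjustment. Because 0.0312 is the smallest exact p possible, an adjusted p under 0.05 needed most of the 10 pairs to reach it. The missed threshold therefore says little about any single pair. The other pairs that differed one way in all cultures were Pfkp above Pfkl, Pfkfb3 above Pfkfb4, and Hk2 below Hk3. Since Hk3 was below background on every array, the last of these restates the fall of Hk2 and compares no measured change of Hk3.

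Phosphofructokinase makes fructose bisphosphate, the committed step of glycolysis, from the subunits Pfkl (liver type), Pfkm (muscle type) and Pfkp (platelet type). Pfkp ran from 8.86 through 8.99 to 9.21 in vehicle and from 9.21 through 9.38 to 9.48 in dexamethasone. The groups met at 9.21 without overlap, and every culture was higher, by 0.27 to 0.47. Pfkp rose 1.29-fold (0.36, SE 0.05, limma adjusted p = 0.00134). Pfkl, at a median of 8.01 in vehicle, and Pfkm, at 8.42, had intervals of the change from -0.12 to 0.10 and from -0.13 to 0.12. The platelet subunit exceeded the liver subunit in its change by 0.38 in 6 of 6 cultures, in log2 units (exact p = 0.0312, adjusted 0.0781). In all, 6 members rose with groups that did not overlap, against 4.10% of all genes, and none fell so, against 2.63%.

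The PFKFB enzymes make and remove fructose 2,6-bisphosphate, the activator of phosphofructokinase. Pfkfb3, whose kinase activity far exceeds its phosphatase activity, ran from 7.25 through 7.53 to 7.78 in vehicle and from 10.64 through 10.86 to 11.16 in dexamethasone. The lowest dexamethasone array lay 2.86 above the highest vehicle array. All 6 vehicle arrays were below the 95th percentile of the negative controls and all 6 dexamethasone arrays above it. The rise was 3.35 (SE 0.07, limma adjusted p = 3.09e-08), with a 95% interval from 3.20 to 3.50, and it ranked 7 among the rises of all genes tested. The cultures ranged only from 3.14 in culture 5 to 3.66 in culture 1. The change stayed between 3.29 and 3.39 under the 18 other settings run.

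Pfkfb4, the isozyme first known from testis and also induced by hypoxia in several cell types, rose 1.48-fold. It ran from 6.43 through 6.65 to 6.76 in vehicle and from 6.99 through 7.24 to 7.39 in dexamethasone, again with no overlap. Like Pfkp and Slc16a3, it lay below the 95th percentile of the negative controls on all 12 arrays. The rise was 0.56 (SE 0.08, limma adjusted p = 0.00235) and ranged from 0.30 in culture 6 to 0.89 in culture 1. Pfkfb3 exceeded Pfkfb4 in its change by 2.79 ± 0.21 (SD, n = 6) in 6 of 6 cultures (exact p = 0.0312, adjusted 0.0781). Fbp1, fructose bisphosphatase of liver and kidney, which runs the reverse step, stayed under the background level throughout.

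**Figure D2:**
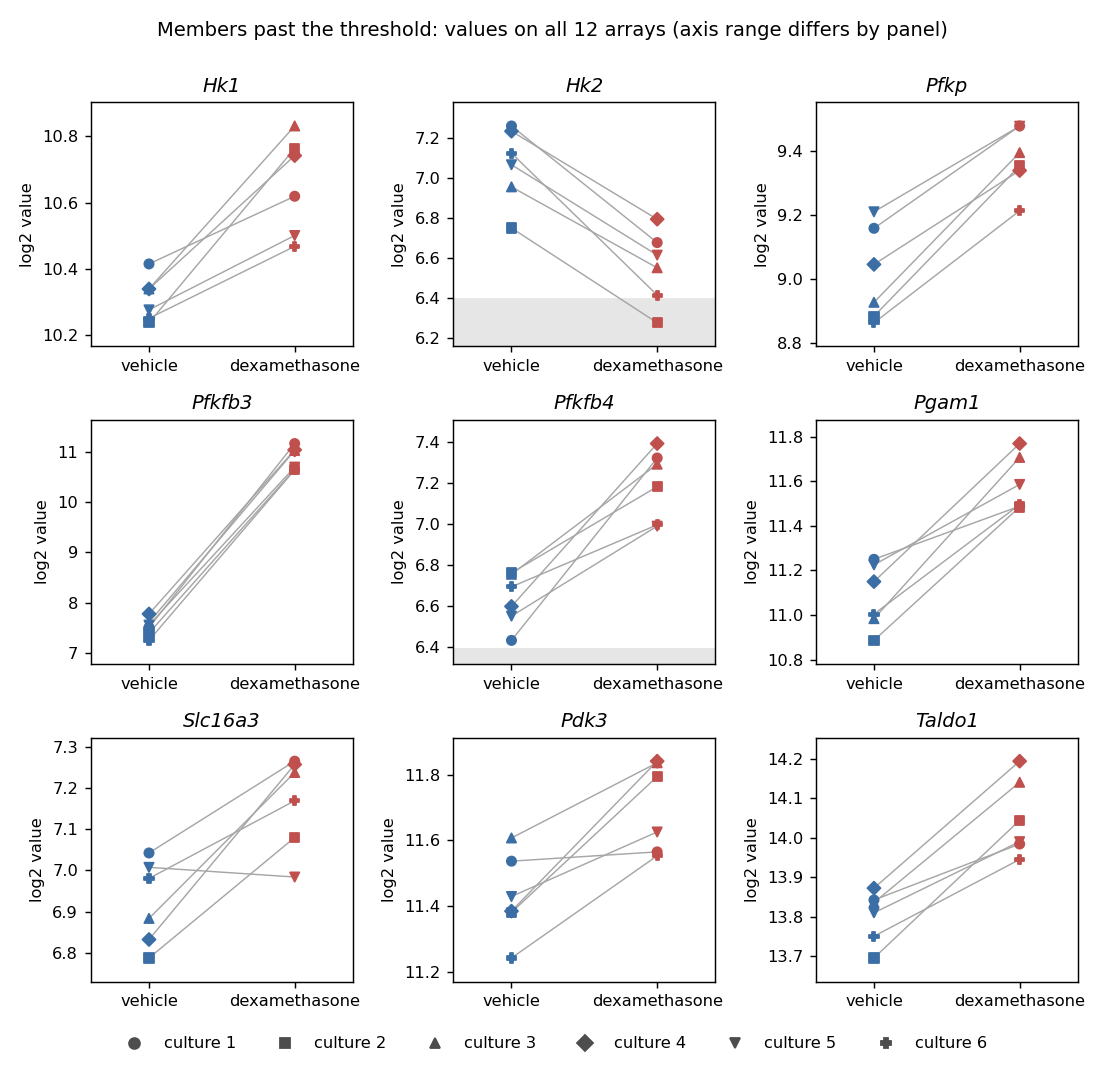
Log2 value (y axis, range differs by panel) of the 9 called members on vehicle and dexamethasone arrays, with lines joining the arrays of a culture and a grey band at the negative control medians. Lines rise in every culture in 7 of the 9 panels, fall in every culture for Hk2, and for Slc16a3 rise in 5 of 6.

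The sequence before the start is shown for Pfkfb3 and Pfkfb4, the members with the largest rises, and for Hk2, the member that fell. RefSeq (build GRCm38.p6) gives Pfkfb3 on chromosome 2 a pair of starts in its promoter table, and the arrays do not tell which was used. The Pfkfb4 window lies inside the span RefSeq gives that gene, which begins at 108988272, so its start need not be the one used. Each run below is the 250 bases before a start, 5′ to 3′ on the strand of the gene. Capitals mark ACGTG and GCGTG, the forms of the core that hypoxia-inducible factors bind, and AGAACA, one arm of the paired glucocorticoid receptor site, on either strand.
Pfkfb3, chr2:11502091-11502340, minus strand: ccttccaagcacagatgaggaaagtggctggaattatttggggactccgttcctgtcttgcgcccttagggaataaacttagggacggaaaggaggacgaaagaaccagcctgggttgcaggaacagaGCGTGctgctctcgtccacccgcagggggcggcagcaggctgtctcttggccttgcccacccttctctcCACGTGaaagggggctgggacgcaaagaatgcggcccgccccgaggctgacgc
Pfkfb3, chr2:11553930-11554179, minus strand: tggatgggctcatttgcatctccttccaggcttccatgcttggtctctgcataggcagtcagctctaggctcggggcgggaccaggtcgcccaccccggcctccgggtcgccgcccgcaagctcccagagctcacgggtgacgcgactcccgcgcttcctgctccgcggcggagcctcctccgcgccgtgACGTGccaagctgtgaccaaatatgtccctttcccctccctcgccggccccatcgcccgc
Pfkfb4, chr9:108991652-108991901, plus strand: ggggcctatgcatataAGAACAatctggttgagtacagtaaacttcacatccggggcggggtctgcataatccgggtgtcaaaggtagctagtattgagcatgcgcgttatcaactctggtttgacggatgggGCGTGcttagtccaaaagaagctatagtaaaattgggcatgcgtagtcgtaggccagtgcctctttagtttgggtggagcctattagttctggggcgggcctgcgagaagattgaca
Hk2, chr6:82774455-82774704, minus strand: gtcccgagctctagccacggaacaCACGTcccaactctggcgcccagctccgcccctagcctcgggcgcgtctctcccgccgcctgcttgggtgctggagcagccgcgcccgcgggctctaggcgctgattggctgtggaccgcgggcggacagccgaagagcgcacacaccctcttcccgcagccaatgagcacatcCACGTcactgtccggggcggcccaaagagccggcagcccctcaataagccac

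ACGTG or its reverse CACGT stood in both Pfkfb3 windows and in that of Hk2. In the first Pfkfb3 window both overlap in CACGTG, which begins 53 bases before the start. Across all 32851 windows of this length in the table, 16.6% held ACGTG, 28.2% held GCGTG and 16.1% held AGAACA. The Pfkfb4 window had AGAACA 234 bases before its listed start, and neither Pfkfb3 window had it. A wider receptor pattern, ACANNNTGT, was in 5.84% of all windows. It stood in none of the 10 windows of the 8 risen genes, nor in the Hk2 window or the 32 of members not past. Of those 10 windows ACGTG was in 5, GCGTG in 7 and AGAACA in 3. Of the 32 windows of 21 members that were measured and did not pass, ACGTG was in 12, GCGTG in 15 and AGAACA in 7. Windows of a gene can overlap, and a match is only a description of these letters.

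The lower steps of glycolysis split fructose bisphosphate and carry it to pyruvate. Of 8 members measured there, 1 rose and 7 did not pass, a share between the 7.39% that rose of all genes and the 16.8% of genes above the negative control median. Pgam1, the phosphoglycerate mutase of most tissues, ran from 10.89 through 11.08 to 11.25 in vehicle and from 11.48 through 11.54 to 11.77 in dexamethasone. The groups did not overlap. Pgam1 rose 1.42-fold (0.50, SE 0.07, limma adjusted p = 0.0016), in 6 of 6 cultures, from 0.24 in culture 1 to 0.72 in culture 3.

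Around it, the aldolases Aldoa and Aldoc, the isomerase Tpi1, and Gapdh, which makes the first NADH of the pathway, had changes between -0.04 and 0.08. The interval of Gapdh, a common reference gene, was -0.05 to 0.14, with medians of 14.94 and 14.98. Pkm, pyruvate kinase, which makes ATP and pyruvate at the last step, was 14.36 in vehicle and 14.25 in dexamethasone by the median. It was lower in 6 of 6 cultures, by between 0.01 and 0.27. Its interval ran from -0.26 to -0.01, with an adjusted p of 0.148 by limma. Under quantile normalization, which gave more falls than rises over all genes, its change was -0.19 and the adjusted p 0.0384. Eno2, the neuronal enolase, stayed under the background level throughout.

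Pgk1, the first ATP-making enzyme of the chain, was 15.35 and 15.26 by the median and lower in 6 of 6 cultures, with a change of -0.12 (limma adjusted p = 0.184). The interval of that change ran from -0.24 to -0.000986. The rule reads Pgk1 from a probe set whose ID carries chromosome 12, whereas RefSeq places the gene on X. Such IDs matched the RefSeq chromosome for 99.6% of 22619 probe sets compared. The other probe set of Pgk1, whose ID carries X, gave medians of 14.17 and 14.13 and a change of -0.07 (adjusted p = 0.349), lower in 4 of 6 cultures. Gapdh and Pgam1 also have probe sets that name a further, copy-like gene and were not used. The probe set used for Gapdh carries its symbol alone but lists a further gene number. For these 3 genes, signal from near-identical copies cannot be told apart from that of the gene.

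Lactate dehydrogenase interconverts pyruvate and lactate, and the SLC16A carriers move lactate across the membrane. Ldha, the muscle-type subunit, had medians of 12.39 and 12.40 and an interval of the change from -0.05 to 0.13. Ldhb, the heart-type subunit, stayed under the background level throughout. Slc16a3 (MCT4), the lactate exporter of glycolytic cells, ran from 6.79 through 6.93 to 7.04 in vehicle and from 6.98 through 7.20 to 7.27 in dexamethasone. The groups overlapped at their edges, since culture 5 was lower by 0.02 while the other 5 cultures were higher by up to 0.43. The rise was 1.18-fold (0.24, SE 0.06, limma adjusted p = 0.0362). That call was lost under 8 of 18 other settings, with an adjusted p up to 0.225. Leaving out culture 1, 2, 3, 4 or 6 ended it, at adjusted p of 0.0732, 0.0912, 0.105, 0.104 and 0.0708, with changes from 0.21 to 0.30 over the 6 single omissions. Slc16a1 (MCT1), the more widespread carrier, had medians of 6.70 and 6.69.

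**Figure D3:**
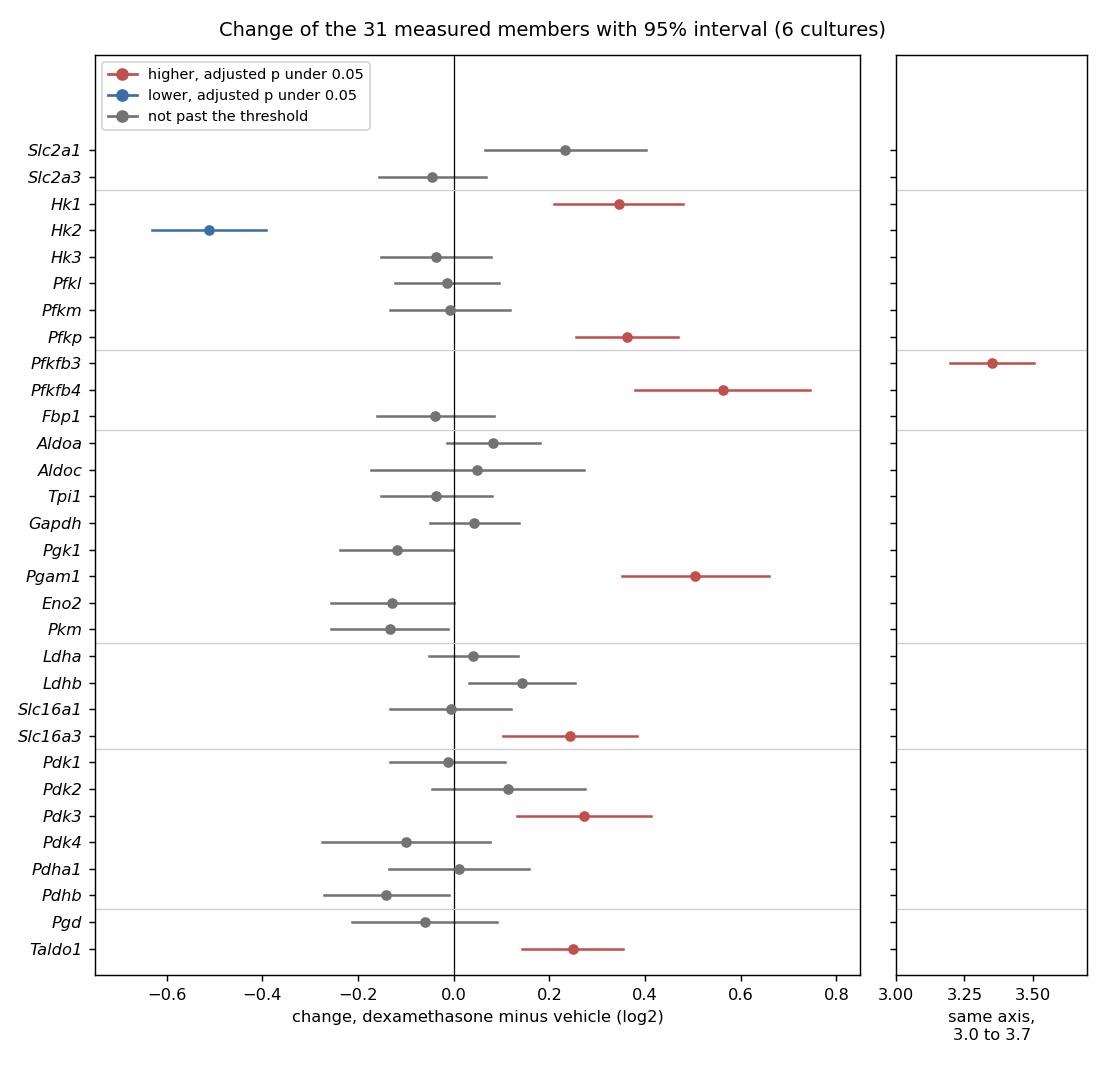
Change under dexamethasone (log2, x axis, broken between panels) with its 95% limma interval for the 31 measured members, ordered by role from glucose entry to the pentose phosphate branch and coloured by call. Of the 22 members not past the threshold, 21 had intervals within -0.3 to 0.3, and Slc2a1 reached 0.40. That range also holds the called changes of Pdk3, Taldo1 and Slc16a3, at 0.27, 0.25 and 0.24.

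Pyruvate dehydrogenase joins glycolysis to the citric acid cycle, and its kinases PDK1 to PDK4 inactivate it. Of 6 members of this step, 1 rose and 5 did not pass, about the 16.8% that rose among genes above the negative control median. Pdk3 ran from 11.24 through 11.41 to 11.61 in vehicle and from 11.55 through 11.71 to 11.84 in dexamethasone. The groups overlapped, but every culture was higher, by between 0.03 in culture 1 and 0.46 in culture 4. The rise was 1.21-fold (0.27, SE 0.06, limma adjusted p = 0.0227). That call was lost under 6 of 18 other settings, with an adjusted p up to 0.145. Among these, leaving out culture 2, 3, 4 or 6 ended the call, at adjusted p of 0.0671, 0.0545, 0.0697 and 0.0634.

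Pdk4, a kinase that glucocorticoids and fasting induce in muscle and liver, did not pass the threshold. It stayed under the background level throughout, with medians of 5.01 and 4.88, and its interval ran from -0.28 to 0.08. Pdk1, a hypoxia-responsive kinase, had medians of 7.23 and 7.26 and an interval from -0.13 to 0.11. Pdk2 had medians of 8.42 and 8.58 and an interval from -0.05 to 0.28. The enzyme's own subunits Pdha1 and Pdhb changed by 0.01 and -0.14, with adjusted p of 0.936 and 0.159 by limma. The interval of Pdha1 ran from -0.14 to 0.16. That of Pdhb, lower in 5 of 6 cultures, ran from -0.27 to -0.01.

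The pentose phosphate branch makes NADPH and ribose. Taldo1, transaldolase of its reversible arm, ran from 13.70 through 13.82 to 13.87 in vehicle and from 13.94 through 14.02 to 14.19 in dexamethasone, without overlap. It rose 1.19-fold (0.25, SE 0.05, limma adjusted p = 0.01), in 6 of 6 cultures. The adjusted p was 0.095 without cultures 2 and 3, and 0.0585 when unnamed and control probe sets were fitted as well. Pgd, of the oxidative arm, had medians of 8.95 and 8.84 and an interval from -0.21 to 0.09.

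Across cultures, 11 of the 31 members moved one way in all 6, compared with 19.5% of all genes tested. Among the called members the cultures did not keep one order. Culture 1 gave the largest rises of Pfkfb3 and Pfkfb4 and the smallest of Hk1, Pgam1, Pdk3 and Taldo1, while culture 2 gave the largest of Hk1, Pfkp and Taldo1. Leaving out cultures 2 and 3, the 4 rises of Pfkfb3, Pfkfb4, Pfkp and Pgam1 and the fall of Hk2 passed, with changes of 3.36, 0.60, 0.31, 0.43 and -0.55. Within vehicle the median SD between cultures was 0.107 for the members and 0.125 for all genes. The members were brighter than most genes, and no comparison at equal brightness was made.

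**Figure D4:**
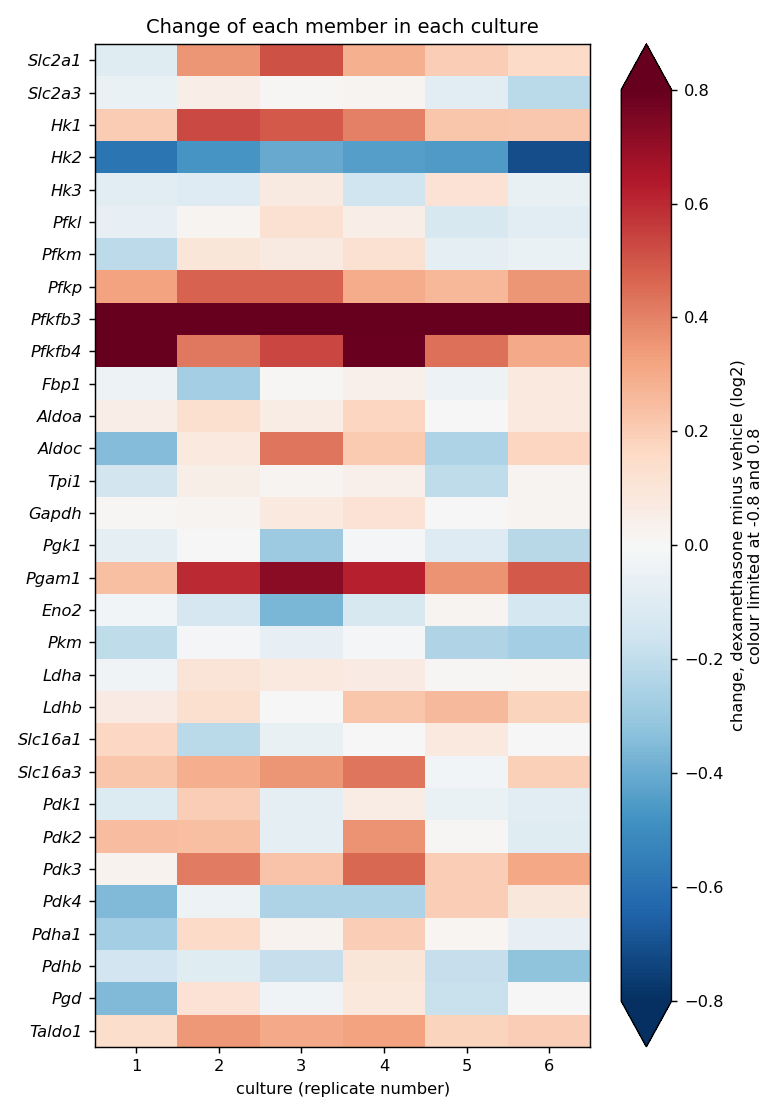
Change under dexamethasone (log2, colour, limited at -0.8 and 0.8) of each of the 31 members (rows, ordered by role) in each of the 6 cultures (columns). Pfkfb3 exceeds the colour limit in all cultures, Hk2 is lower in all, and most rows of lower glycolysis stay pale.

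Other genes of sugar metabolism were taken from lists made by function, and their counts stand beside 7.39% of all genes that rose and 4.56% that fell. Among genes above the negative control median these shares were 16.8% and 9.48%. Glycogen genes, with a median vehicle level of 8.64, showed 3 rises and 1 fall among 16 tested, and their median change was -0.04. These shares lie near those of genes above the negative control median. Pygl, glycogen phosphorylase, which frees glucose units from glycogen, rose from 10.74 ± 0.20 to 11.68 ± 0.17 (SD, n = 6), by 0.93 (SE 0.05, limma adjusted p = 3.91e-06). Gyg, glycogenin, the protein primer of glycogen, rose from 11.55 ± 0.07 to 12.47 ± 0.13, by 0.92 (SE 0.06, limma adjusted p = 3.02e-05). Both rose in 6 of 6 cultures. Ppp1r3d, a subunit that targets a phosphatase to glycogen, rose by 0.33, and Phka1, a subunit of phosphorylase kinase, fell by 0.38.

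Of 19 further glucose transport and glycolysis genes 3 rose and none fell, the rises being those of Pgm2, Ldhc and Pgam2, by 0.27, 0.26 and 0.22. Ldhc, the lactate dehydrogenase of testis, and Pgam2, the muscle mutase, lay near the negative control median. Of 16 further pyruvate and gluconeogenesis genes, 2 rose and 1 fell. Pck2, the mitochondrial enzyme that makes phosphoenolpyruvate, rose by 0.37, and Pdpr, a regulatory subunit of pyruvate dehydrogenase phosphatase, rose by 0.33. Dld, the shared dehydrogenase subunit of the pyruvate dehydrogenase complex, fell by 0.24 (limma adjusted p = 0.0481). Of 8 further pentose phosphate genes, Shpk, sedoheptulose kinase, rose by 0.33 and the others did not pass.

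Of 19 regulators of glycolytic genes tested, 2 rose, 2 fell and 15 did not pass. These shares lie near the background, which was 7.39% and 4.56% of all genes and 16.8% and 9.48% of genes above the negative control median. Myc, which drives many glycolytic genes, rose from 8.76 ± 0.16 to 9.13 ± 0.18 (SD, n = 6), by 0.38 (SE 0.07, limma adjusted p = 0.011). Mlxip (MondoA), a glucose-sensing factor, rose by 0.43 (SE 0.06, limma adjusted p = 0.00174). Its usual target Txnip, which restrains glucose uptake, was 13.77 ± 0.16 and 13.93 ± 0.11 (limma adjusted p = 0.104). Prkaa2, a catalytic subunit of the energy sensor AMPK, fell by 0.36.

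Hif1a, the oxygen-regulated factor that drives glycolytic genes in hypoxia, was 10.34 ± 0.07 and 10.18 ± 0.08 and lower in 6 of 6 cultures (limma adjusted p = 0.0628). Egln3, a hydroxylase that marks HIF for destruction and is itself induced by hypoxia, fell by 0.51 (SE 0.08, limma adjusted p = 0.00275). Of 17 other hypoxia-response genes tested, Egln3 among them, 5 rose and 3 fell. Beside these counts, 7.39% of all genes rose and 4.56% fell, and 16.8% and 9.48% of genes above the negative control median. Bnip3, a mitophagy receptor, rose by 3.38 (SE 0.08), a size like that of Pfkfb3, Ddit4, an inhibitor of mTOR, rose by 1.83, and Bnip3l rose by 0.46. The median change of these 17 was -0.01.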

How the data were processed

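RNA of the 12 portions was amplified from 50 ng and labelled with biotin for 1-colour arrays, per the labels' protocols. Per array, the authors deposited 72688 probe set values from 2.07 to 19.93, whose range was taken to mean a log2 scale. The sources used here do not give the background correction, normalization or summarization. How values above the usual scanner range arose was not tested. The number of arrays limits the precision.

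Probe sets were named from a table of the array's annotation: 30604 carried 1 symbol and 2146 several. A total of 827 symbols were updated through gene numbers to RefSeq (GRCm38.p6). The probe set with the highest mean represented a gene. Genes above the 25th percentile of their array on at least 6 of 12 arrays were tested, 24265 of 30142. The deposited values were used unscaled. The fit was limma 3.58.1 (lmFit, eBayes) in R 4.3.3 with culture as a block, two-sided, with Benjamini-Hochberg adjustment over all genes tested. Limma gave every adjusted p in the text except those of the isozyme pairs, which are exact sign-flip tests adjusted over the 10 pairs. The fit was tested on simulated data.

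The block follows the treatment protocol, which has each culture divided. Deviations from the group means correlated between arrays of one number with r from 0.049 to 0.247, mean 0.157, against -0.032 for different numbers. P-values measure the spread between cultures. The members and lists were chosen with earlier results of these data known. The rule for names took every member, up to 4 called genes from each other list, largest change first, and any regulator or glucocorticoid control gene. F2rl2 and Lyz2 were named after their values were seen.

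Marker lists of other cells the cultures could hold were counted besides the neutrophil list. There was 1 fall among 11 monocyte and macrophage genes and 1 fall among 5 erythroid genes tested. Mast cell and basophil genes gave 3 rises and 1 fall among 9 tested, and lymphocyte genes 1 rise and 1 fall among 9. Stem and progenitor genes gave 2 rises and 3 falls among 8. Of all genes tested, 7.39% rose and 4.56% fell. Some genes of these lists were bright. Lyz2, of the monocyte and macrophage list, was at 17.46 ± 0.10 in vehicle (SD, n = 6) and did not pass. Gzmb, of the lymphocyte list, was at 13.91 ± 0.33 in vehicle and fell by 1.11 (limma adjusted p = 2.93e-06). The part of these genes was not tested.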

Additional observations from a re-analysis of the deposited data

Results flagged for a closer look

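In 93 sets of 6 values, the vehicle level, the dexamethasone level and the change by culture of each of the 31 measured members were searched for a sample far from the other 5. Such a search marks about 1 set in 20 by chance, and 1 was found. The change of Fbp1, fructose bisphosphatase, was -0.27 in culture 2 against a median of -0.02 over the 6 cultures, and this gap made up 0.652 of the whole range. All 12 arrays had Fbp1 under the negative control median.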

How the results depend on the processing

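The other settings changed the block, the scaling, the filter on dim genes, the variance model, the choice of probe sets or the cultures. Leaving out cultures 2 and 3 together, and reading Pgk1 from its other probe set, were chosen after seeing the data. Pfkfb3, Pfkfb4, Pfkp, Pgam1 and Hk2 kept their direction and passed under all 18 of them. The number of risen members was 5 when all probe sets were fitted, 4 without cultures 2 and 3, and from 6 to 8 when single cultures were left out. The number of fallen members was 3 after quantile normalization. Without the replicate block the members counted 8 rises and 1 fall, and all genes past the threshold 2452 in place of 2900. All genes past it numbered 1215 with all probe sets fitted, 1269 without cultures 2 and 3, and from 1878 to 2331 when single cultures were left out, the lowest without culture 3. The cause was not tested. Of the calls over all genes, rises made up 61.9%, with 44.9% under quantile normalization and 70.3% with array medians set equal. Isozyme pairs that differed one way in every culture numbered 4, one of them against Hk3, and from 4 to 6 when single cultures were left out.

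Signs turned for 8 members, none of them called. After quantile normalization Aldoc was -0.00403, Ldha -0.0014 and Pdha1 -0.049. With each array centred on its median Pdk1 was 0.0075, Pfkl 0.0072, Pfkm 0.012 and Slc16a1 0.015. Without cultures 2 and 3 Aldoc was -0.053, Fbp1 0.0077, Pdha1 -0.031 and Slc16a1 0.061. With single cultures left out, Aldoc ran from -0.027 to 0.129, Fbp1 from -0.0618 to 0.00826, Pdha1 from -0.0264 to 0.0662, Pdk1 from -0.0545 to 0.00585, Pfkl from -0.0400 to 0.00888, Pfkm from -0.0343 to 0.0324 and Slc16a1 from -0.0405 to 0.0363. Hk3, Fbp1, Eno2, Ldhb and Pdk4 lay below the negative control median on every array, so a change in them may not show.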
